A study of Mus musculus with 27 samples.

Results

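The genes described here encode neuronal calcium sensors and the enzymes that calcium and calmodulin act on: the sensors Hpca, Hpcal4, Ncald and Caln1, the calmodulin-binding protein gene Nrgn, and the kinase family members Camk2a, Camk2b, Camk4 and Camkv. They were chosen by name, with earlier results of these data known. Every array probe annotated to 1 of the 9 symbols was taken, 15 probes of 45281. Of these, 10 were detected in at least 5 of 27 arrays, which left all 9 genes measured among the 10663 genes of the study, each by 1 probe (Camk2a also by a second). The other 5 probes, for Caln1, Camk2a and Camk2b 1 each and for Camk4 2, were above background in 0 arrays or in 1.

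Total RNA of mouse samples was labelled with biotin and hybridised to Illumina BeadChips, 1 array per sample. The 27 arrays fall in 5 groups: 5 of Tbr2 conditional knockout (cKO) cortex at embryonic day 13 (E13), 6 called E13 embryo, 6 of Tbr2 cKO cortex at E16, 5 called E16 embryo, and 5 of neurons of the Tbr2 lineage at postnatal day 2 (P2), sorted from cortex by green fluorescent protein (GFP). The labels name no strain, no Cre driver and no reporter allele, and WT, taken here to mean wild type, stands in the column names of the embryo arrays. An extraction text about a GFP sort comes with each of the 27 samples, but GFP and neurons appear in the title and source of P2 samples alone. The embryo labels give no tissue, and the age field of the E16 embryo samples repeats E13, so stages were taken from the titles. Nothing states that replicates were separate litters or animals, and p-values measure the spread between these arrays only.

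Between 36.9% and 42.9% of probes were detected per array, and the number of arrays per group limits the precision. Tbr2 is the protein of Eomes, a transcription factor of intermediate progenitors. Its log2 signal was 11.52 ± 0.10 (SD, n = 5) in arrays labelled E13 cKO against 11.25 ± 0.27 (SD, n = 6) in E13 embryo, 11.09 ± 0.46 (SD, n = 6) in arrays labelled E16 cKO against 10.51 ± 0.32 (SD, n = 5) in E16 embryo, and 5.81 ± 0.41 (SD, n = 5) in P2 neurons. The transcript was therefore not lower in the arrays labelled cKO. The sources used here do not say which exons the deletion removes, so this probe does not check those labels. E13 cKO array 2 and E16 cKO array 3 had been found among the embryo arrays in earlier work on these data, and results that rest on them are given with and without them. Arrays are numbered within a group by the order of their columns, which is a name only.

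Calcium that enters a neuron is read by EF-hand proteins, which change shape when they bind it. Calmodulin is the most widely used of them, and it switches on the calmodulin-dependent kinases. Hippocalcin, its relative Hpcal4 and neurocalcin delta (Ncald) carry a fatty acid tail that moves them to membranes when calcium rises, while calneuron 1 (Caln1) is anchored in membranes of the Golgi. Neurogranin (Nrgn) is a small protein of dendrites that holds calmodulin while calcium is low and is itself a substrate of protein kinase C. In the forebrain, Camk2a and Camk2b encode the main subunits of the kinase CaMKII of synapses, Camk4 encodes a kinase that acts in the nucleus on the transcription factor CREB, and Camkv encodes a pseudokinase, a member of the family without kinase activity.

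Promoter windows from RefSeq (GRCm38.p6) were used for 6 of the 9 members, 8 windows of 300 bases in all. Shown are the 3 that hold the letters CAGATG, of Nrgn, Caln1 and Hpcal4, and the 1 of 3 Hpca windows with a match, since Hpca followed another pattern. The windows of Camkv and Camk2b, which were also higher at P2, are not shown. Capitals mark these E-box letters, read on either strand, and the related E-box letters CAGCTG. The lines run 5′ to 3′ along the strand of the gene.
Nrgn, chr9:37552696-37552995, minus strand: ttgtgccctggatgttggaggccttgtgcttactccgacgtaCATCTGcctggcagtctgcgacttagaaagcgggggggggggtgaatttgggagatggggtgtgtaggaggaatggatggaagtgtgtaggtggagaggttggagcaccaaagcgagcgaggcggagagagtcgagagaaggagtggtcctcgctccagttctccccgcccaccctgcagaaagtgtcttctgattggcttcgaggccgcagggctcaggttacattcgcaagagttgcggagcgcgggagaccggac
Caln1, chr5:130369208-130369507, plus strand: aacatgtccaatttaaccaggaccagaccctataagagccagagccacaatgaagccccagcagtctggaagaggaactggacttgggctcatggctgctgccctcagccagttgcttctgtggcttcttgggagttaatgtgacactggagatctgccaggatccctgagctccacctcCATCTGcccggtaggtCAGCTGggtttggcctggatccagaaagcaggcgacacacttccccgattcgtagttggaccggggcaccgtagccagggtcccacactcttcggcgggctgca
Hpcal4, chr4:123183254-123183553, plus strand: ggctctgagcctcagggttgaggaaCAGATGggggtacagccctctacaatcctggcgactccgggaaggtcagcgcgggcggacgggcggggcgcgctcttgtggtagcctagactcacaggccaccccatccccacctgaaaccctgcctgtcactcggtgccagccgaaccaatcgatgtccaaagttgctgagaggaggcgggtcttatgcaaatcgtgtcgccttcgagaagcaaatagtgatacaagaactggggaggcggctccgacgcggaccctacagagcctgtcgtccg
Hpca, chr4:129121698-129121997, minus strand: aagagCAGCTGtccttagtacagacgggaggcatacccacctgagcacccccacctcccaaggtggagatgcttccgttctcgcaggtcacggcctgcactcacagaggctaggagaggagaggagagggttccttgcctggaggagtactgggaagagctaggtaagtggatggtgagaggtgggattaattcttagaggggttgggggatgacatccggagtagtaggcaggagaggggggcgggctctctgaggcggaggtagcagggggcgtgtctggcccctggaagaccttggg

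The letters CAGATG, on either strand, were found in 3 of the 8 member windows (Nrgn, Caln1 and Hpcal4), and in 17.2% of all 32851 windows of the same length. CAGCTG, which reads the same on both strands, was in 3 of 8 (Caln1, Camkv and 1 of 3 for Hpca), and in 16.3% of all windows. No 2 matches overlapped. The T-box letters TCACACC, the CREB element TGACGTCA and the TATA letters TATAAA were in 0 of the 8 windows, against 3.98%, 1.79% and 13.6% of all windows on both strands. These letters are a description of the windows and not of binding.

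Signals below are on the log2 scale after background correction and quantile normalisation, so a difference of 1 is a doubling. Changes come from limma's moderated linear model over all 27 arrays and 10663 genes, each with its standard error (SE), and the threshold was a p of 0.05 after Benjamini-Hochberg adjustment. A probe counted as above background in an array at a detection p under 0.01. In bulk RNA, fewer cells of a type and less RNA per cell cannot be told apart.

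**Figure D1:**
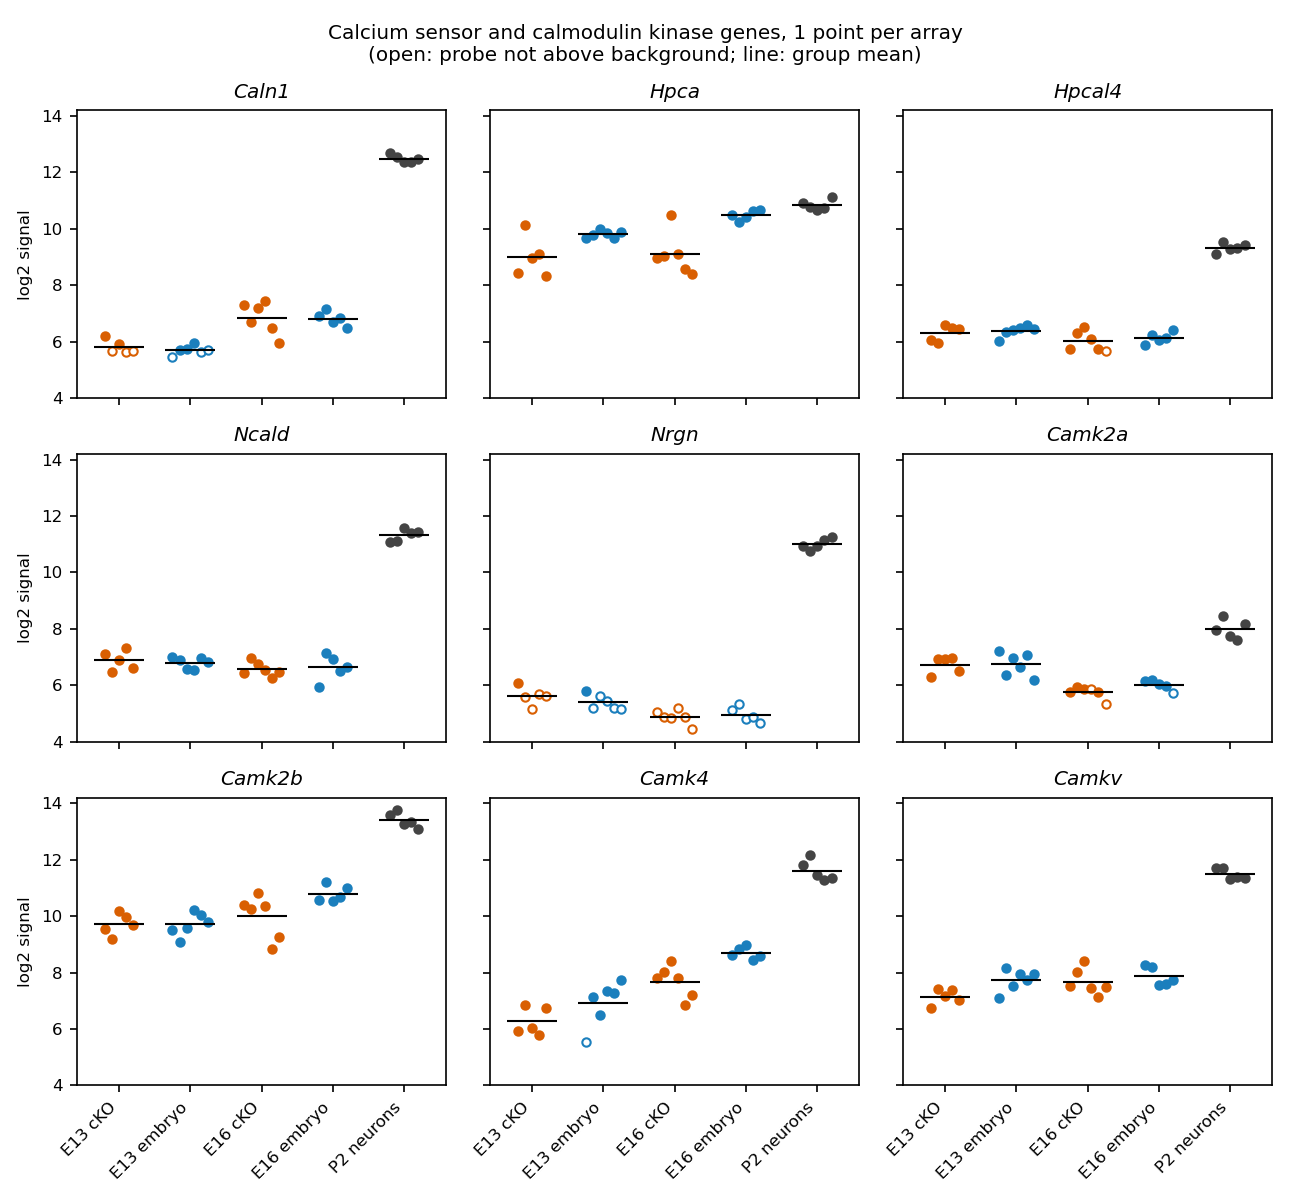
Normalised log2 signal (y axis) of each of the 9 genes in the 5 groups (x axis), 1 point per array, with the group mean as a line and open points where the probe was not above background. In 8 of the 9 panels every P2 array lies above every embryonic array, and Hpca is the exception. Of all genes, 30.4% passed as higher in P2 neurons than in E16 embryo, and the share separated in this way was not counted.

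The P2 neurons were compared with the E16 embryo and E13 embryo arrays to see what distinguished postnatal neurons of the lineage. Of the 9 genes, 8 were higher in P2 neurons than in E16 embryo (30.4% of all genes were) and 9 of 9 than in E13 embryo (31.7% of all genes). As the genes were chosen with earlier results known, these counts describe them and do not test an excess over all genes. The largest changes were those of Caln1 and Nrgn, and the smallest that of Hpca.

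Caln1 measured 12.68, 12.54, 12.38, 12.36 and 12.49 in P2 neurons, against 6.91, 7.15, 6.69, 6.82 and 6.47 in E16 embryo. In E13 embryo its lowest, median and highest values were 5.45, 5.71 and 5.94, with 3 of 6 arrays above background. The 3 groups did not overlap, and P2 stood far above both embryonic groups. The change was 51.4-fold over E16 embryo (log2 change 5.69 ± 0.20 SE; limma adjusted p = 8.3e-19) and 111-fold over E13 embryo (6.79 ± 0.19 SE; limma adjusted p = 7.3e-21). Among the changes of all 10663 genes, Caln1 ranked 13th from the top against E16 embryo and 2nd against E13 embryo.

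Ncald measured 11.09, 11.10, 11.57, 11.41 and 11.43 in P2 neurons, against 5.95, 7.16, 6.93, 6.51 and 6.64 in E16 embryo. E13 embryo arrays lay between 6.53 and 7.0 with a median of 6.86. P2 lay above all embryonic arrays, while the ranges of both embryonic stages overlapped. The signal was 25.6-fold higher than in E16 embryo (4.68 ± 0.18 SE on the log2 scale; limma adjusted p = 1.2e-17) and 22.9-fold higher than in E13 embryo (4.52 ± 0.18 SE).

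Hpcal4 had log2 signals of 9.11, 9.54, 9.27, 9.32 and 9.42 in P2 neurons, against 5.89, 6.22, 6.04, 6.11 and 6.42 in E16 embryo. Its E13 embryo values had a low of 6.02, a median of 6.43 and a high of 6.60. Again P2 stood alone and the embryonic groups overlapped. It was 9.15-fold higher than in E16 embryo (3.19 ± 0.16 SE; limma adjusted p = 1e-15) and 7.71-fold higher than in E13 embryo (2.95 ± 0.15 SE).

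Hpca differed from the other sensors. It measured 10.90, 10.77, 10.67, 10.73 and 11.11 in P2 neurons, against 10.50, 10.24, 10.40, 10.62 and 10.68 in E16 embryo, and those ranges touched, with 4 of 5 P2 arrays above every E16 array. The difference of 0.35 ± 0.28 SE did not pass (limma adjusted p = 0.28), and its 95% confidence interval ran from -0.24 to 0.93. Against E13 embryo, with a low of 9.66, a median of 9.82 and a high of 9.98, Hpca was 2.03-fold higher (1.02 ± 0.27 SE; limma adjusted p = 0.0015). The difference of Hpca between P2 and E16 embryo passed in 3 of 13 other settings. These were a fit of the compared groups alone (0.35; limma adjusted p = 0.022), a fit without the 2 cKO arrays named above (0.35; limma adjusted p = 0.04), and tables normalised separately (1.04; limma adjusted p = 0.0021), where the median of all genes lay at 0.66.

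Nrgn was above background in 5 of 5 P2 arrays, at 10.93, 10.77, 10.94, 11.16 and 11.24, and in 0 of 5 E16 embryo arrays, which measured 5.13, 5.33, 4.82, 4.88 and 4.65. It was above background in 1 of 6 E13 embryo arrays, whose lowest, median and highest values were 5.15, 5.32 and 5.81. In the arrays labelled cKO it was above background in 1 of 5 at E13 and 0 of 6 at E16. The gene was thus measured in P2 neurons and hardly or not at all in embryonic arrays. Its probe met the filter of 5 arrays only through the P2 arrays. Its signal at P2 was higher than in E16 embryo (limma adjusted p = 4.2e-21 for the fitted change). The fold was at least 38.0, a bound that sets each E16 array at its background limit and was not itself tested. Measured means were 11.01 ± 0.19 in P2 neurons and 4.96 ± 0.27 in E16 embryo (SD, n = 5 each).

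Both CaMKII subunit genes were higher at P2. Camk2b measured 13.60, 13.75, 13.25, 13.35 and 13.08 in P2 neurons, against 10.56, 11.22, 10.53, 10.69 and 11 in E16 embryo, and between 9.10 and 10.22 with a median of 9.69 in E13 embryo. The groups did not overlap. This was 6.10-fold over E16 embryo (2.61 ± 0.28 SE; limma adjusted p = 7.3e-09) and 13-fold over E13 embryo (3.70 ± 0.27 SE).

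Camk2a had values of 7.97, 8.45, 7.74, 7.62 and 8.16 in P2 neurons, against 6.15, 6.19, 6.03, 5.99 and 5.71 in E16 embryo, where 4 of 5 arrays were above background. E13 embryo lay between 6.19 and 7.23 with a median of 6.82, above most of E16. P2 was 3.92-fold higher than E16 embryo (1.97 ± 0.18 SE; limma adjusted p = 4.5e-10) and 2.37-fold higher than E13 embryo (1.24 ± 0.18 SE). The second Camk2a probe was above background in 5 of 5 P2 arrays (6.40, 6.72, 6.33, 6.60 and 6.69) and in 0 of the 22 embryonic arrays. It met the filter of 5 arrays only through the P2 arrays, so its rise is not separate support for that of the gene. On that probe P2 was at least 1.72-fold above E16 embryo, and the remaining Camk2a probe was above background in no array of any group.

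Camk4 measured 11.83, 12.17, 11.45, 11.28 and 11.35 in P2 neurons, against 8.62, 8.83, 8.96, 8.45 and 8.59 in E16 embryo, and between 5.53 and 7.74 with a median of 7.21 in E13 embryo. The 3 stages were fully separated. P2 was 7.60-fold over E16 embryo (2.93 ± 0.32 SE; limma adjusted p = 7.2e-09) and 26.0-fold over E13 embryo (4.70 ± 0.30 SE). The other 2 Camk4 probes were above background in 1 P2 array and in 0 arrays, so this gene rests on 1 probe.

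Camkv, the pseudokinase gene, measured 11.71, 11.69, 11.31, 11.37 and 11.35 in P2 neurons, against 8.28, 8.19, 7.56, 7.61 and 7.73 in E16 embryo. In E13 embryo the lowest, median and highest were 7.09, 7.84 and 8.16. The embryonic stages overlapped and P2 stood apart. It was 12.2-fold over E16 embryo (3.61 ± 0.21 SE; limma adjusted p = 4.4e-14) and 13.5-fold over E13 embryo (3.75 ± 0.20 SE).

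The median log2 change of the 9 genes was 3.19 over E16 embryo and 3.75 over E13 embryo, while that of all genes was -0.14 and -0.13. The calls were the same with each P2 or embryo array left out in turn. The P2 arrays differ from the embryo arrays in age, in the sort that only the P2 titles and sources name, and in the deposited table. The embryo labels name no tissue. These differences, and any of tissue, cannot be told apart.

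**Figure D2:**
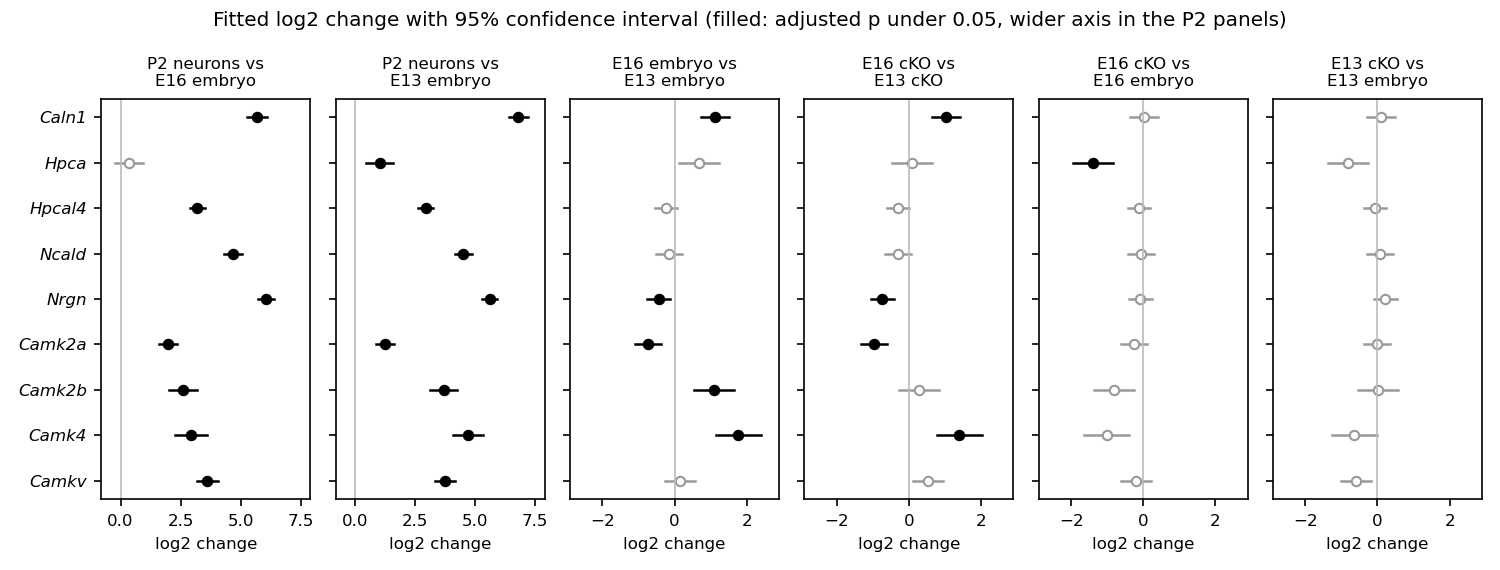
Fitted log2 change (x axis, with its 95% confidence interval) of the 9 genes (rows) in 6 comparisons, filled where the adjusted p was under 0.05. The P2 panels have a wider axis, all their changes lie above 0, and Hpca is the only filled point in the panels of cKO against embryo.

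Markers of other cells moved in the same comparison. The 5 measured neuron markers summed to 53600 to 60020 on the linear scale in P2 arrays, against 31070 to 35580 in E16 embryo, and 3 were higher. Sums of 5 markers of cortical excitatory neurons were 13520 to 17600 against 24900 to 30850. Of these 5, however, 2 were higher at P2 and 3 lower. Of 4 intermediate progenitor markers, 4 were lower at P2. All 5 microglia markers were higher at P2, with sums of 2159 to 3423 against 127.4 to 180.8, and 4 of them (Cx3cr1, C1qa, C1qb and Tyrobp) were above background in no E16 embryo array. All 3 measured endothelial markers were higher too, with sums of 2260 to 3314 against 69.5 to 79.9, and were above background in no E16 embryo array. These 4 microglia and 3 endothelial markers met the filter of 5 arrays only through the P2 arrays. Sums of 7 radial glia markers ran from 1743 to 18160 in P2, against 2421 to 2856 in E16 embryo, with 2 markers higher and 3 lower. Sums of the 2 measured oligodendrocyte lineage markers, both higher, ran from 842.8 to 12110, against 104.4 to 150.3. Choroid plexus markers were higher for 2 of 3, with sums of 1793 to 18850 in P2 against 122.8 to 170.6 in E16 embryo, and astrocyte markers for 2 of 3, with 230.6 to 4057 against 194.1 to 258.6. For these 4 lists the highest P2 array was array 3, and 8 of the 9 genes passed without it. Interneuron markers were higher for 2 of 4, dividing cell markers lower for 3 of 3, and neither of the 2 measured blood markers passed. The part of these cells in the changes of the 9 genes was not tested.

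E16 was set against E13 in embryo and in cKO arrays to follow the genes before birth. Caln1 and Camk4 were higher at E16 in both series, Camk2b was higher in the embryo arrays, and Camk2a was lower in both. In embryo arrays 3 of 9 genes were higher (11.5% of all genes) and 2 lower (12.4%). In arrays labelled cKO 2 were higher (11.6% of all genes) and 2 lower (14.4%).

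Markers of other cells moved between the stages too. All 3 measured markers of dividing cells were lower at E16 in both series, with sums of 1403 to 2110 in E16 embryo against 3931 to 5419 in E13 embryo, and of 1540 to 2649 in E16 cKO against 5363 to 6134 in E13 cKO. Of 5 markers of cortical excitatory neurons 3 were lower at E16 in embryo arrays, while 2 were higher in cKO arrays. Of 4 intermediate progenitor markers 3 were lower in embryo arrays and 1 in cKO arrays. Choroid plexus markers were lower for 1 of 3 in embryo and 3 of 3 in cKO arrays, and thalamus markers for 2 of 4 in embryo and 1 of 4 in cKO arrays. The part of these cells in the stage changes of the 9 genes was not tested.

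Camk4 showed the largest embryonic rise. With the E16 and E13 embryo values given above, it was 3.42-fold higher at E16 (1.77 ± 0.30 SE; limma adjusted p = 9.2e-05). In the cKO series E16 arrays had a low of 6.85, a median of 7.79 and a high of 8.41, against 5.94, 6.84, 6.05, 5.80 and 6.74 at E13. These groups did not overlap either, and the change was 2.65-fold (1.40 ± 0.30 SE; limma adjusted p = 0.001).

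Caln1 was 2.16-fold higher at E16 than at E13 in embryo arrays (1.11 ± 0.19 SE; limma adjusted p = 8.3e-05), and 5 of 5 E16 arrays were above background. In arrays labelled cKO, E16 values had a low of 5.94, a median of 6.95 and a high of 7.43, against 6.19, 5.65, 5.91, 5.64 and 5.65 at E13. There 5 of 6 E16 arrays lay above every E13 array, and the change was 2.05-fold (1.03 ± 0.19 SE; limma adjusted p = 0.00017). At E13, 3 of 6 embryo arrays and 2 of 5 cKO arrays were above background, so both folds were taken against values near background.

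Camk2b was 2.13-fold higher at E16 than at E13 in embryo arrays (1.09 ± 0.27 SE; limma adjusted p = 0.0041), without overlap. In the cKO series it had a low of 8.82, a median of 10.32 and a high of 10.83 at E16, against 9.54, 9.19, 10.17, 9.98 and 9.70 at E13. Arrays 5 and 6 of E16 cKO, at 8.82 and 9.25, lay within or below the E13 values, and the difference of 0.28 ± 0.27 SE did not pass (limma adjusted p = 0.49). The difference between both stage changes was -0.81 ± 0.38 SE (limma adjusted p = 1 over all genes, 0.045 unadjusted).

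Camk2a ran the other way before birth. In embryo arrays it was 1.66-fold lower at E16 (-0.73 ± 0.18 SE; limma adjusted p = 0.0032), with 4 of 5 E16 arrays below every E13 array. In arrays labelled cKO it had a low of 5.35, a median of 5.81 and a high of 5.93 at E16, against 6.30, 6.93, 6.93, 6.98 and 6.49 at E13, without overlap. That was 1.96-fold lower (-0.97 ± 0.18 SE; limma adjusted p = 0.00015), and 4 of 6 of those E16 arrays were above background.

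Nrgn also passed as lower at E16 in embryo (limma adjusted p = 0.04) and in cKO arrays (limma adjusted p = 0.00077), but 2 of the 22 embryonic arrays held it above background, both at E13, so no fold is given. In the embryo series the call was lost without any 1 of 6 arrays (1, 3 and 4 of E13, and 3, 4 and 5 of E16), where the adjusted p reached 0.12. Hpca in embryo arrays was 0.68 ± 0.27 SE higher at E16, without overlap, and missed the threshold (limma adjusted p = 0.073). It passed with the compared groups alone (limma adjusted p = 0.00023) and without the 2 cKO arrays (limma adjusted p = 0.00092). Hpcal4, Ncald and Camkv did not pass in either series, with log2 differences between -0.31 and 0.53. For Camkv in cKO arrays, the largest of these, the adjusted p was 0.056. It was 0.023 at its lowest with 1 array left out, and passed without array 2 of E13 or array 5 of E16. For Hpcal4 in cKO arrays (limma adjusted p = 0.15) the difference passed without array 3 of E16 (limma adjusted p = 0.042) and without both arrays named apart (limma adjusted p = 0.017).

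Arrays labelled cKO were set against embryo arrays at each stage to see which genes differed with the Tbr2 cKO label. At E16 the 1 gene of 9 that passed was Hpca, which was lower (0.225% of all genes were lower and 0.263% higher). At E13, 0 of 9 genes passed, where 1.45% of all genes did in either direction. In each of these comparisons 3 of 9 genes had an unadjusted p under 0.05, as did 749 of 10663 genes at E16 and 1052 at E13.

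Hpca at E16 measured 8.95, 9.02, 10.48, 9.12, 8.58 and 8.38 in arrays 1 to 6 labelled cKO, with a median of 8.98, against 10.50, 10.24, 10.40, 10.62 and 10.68 in E16 embryo. Array 3 lay inside the embryo values and the other 5 cKO arrays below all of them. The change was 2.64-fold lower (-1.40 ± 0.27 SE; limma adjusted p = 0.014), the 4th lowest of all 10663 genes. Without array 3 it was -1.68 (limma adjusted p = 3.7e-05). In a fit of the E16 groups alone the adjusted p was 0.12, and on the deposited log2 values with the replicate number as a block it was 0.053.

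At E13 the same gene measured 8.44, 10.14, 8.95, 9.11 and 8.34 in arrays labelled cKO, against a low of 9.66, a median of 9.82 and a high of 9.98 in E13 embryo. Array 2 lay above all embryo arrays and the other 4 below all of them. The difference of -0.81 ± 0.27 SE did not pass (limma adjusted p = 0.18). Without array 2 it was -1.10 with an adjusted p of 0.0084. As array 2 of E13 and array 3 of E16 were singled out for their likeness to embryo, values without them are favoured by that choice.

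**Figure D3:**
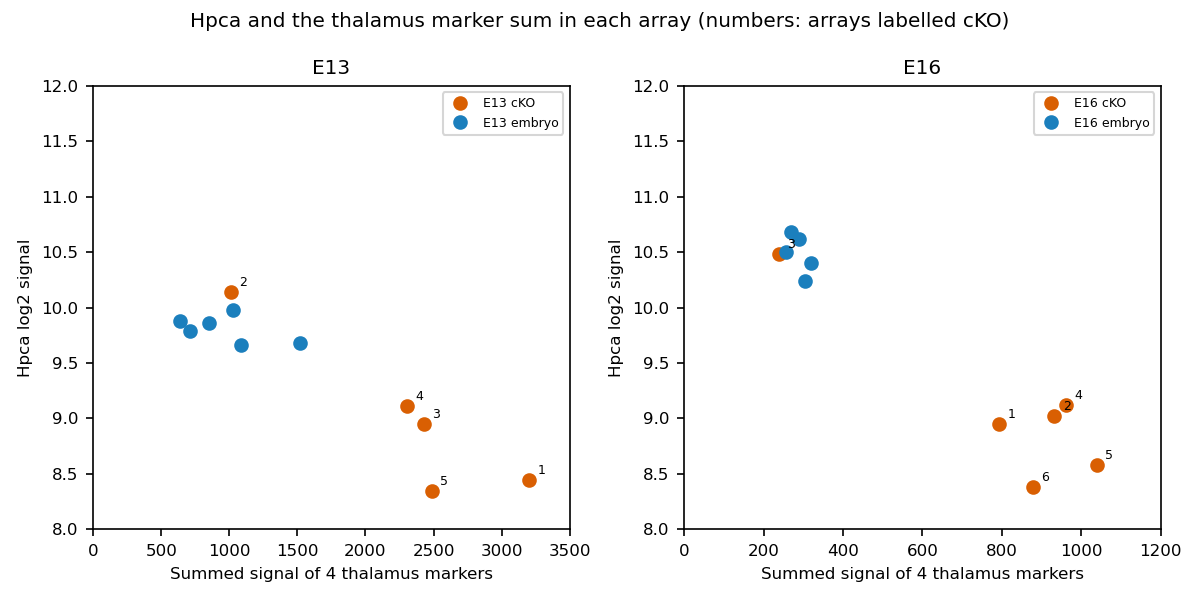
Log2 signal of Hpca (y axis) against the summed linear signal of 4 thalamus markers (x axis) in each array at E13 and E16, with the arrays labelled cKO numbered. Array 2 of E13 cKO and array 3 of E16 cKO lie near the embryo arrays. The first is above all of those in Hpca (10.14), and the second is below all of those in the sum (239.1). The other arrays labelled cKO lie below the embryo arrays in Hpca and to their right.

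Among the arrays labelled cKO at each stage, the array with the lowest summed signal of thalamus markers had the highest Hpca. The 4 measured markers summed to 793.8, 932.6, 239.1, 961.1, 1040 and 879.2 in arrays 1 to 6 of E16 cKO, against 256.6 to 320.5 in E16 embryo. At E13 the sums were 3204, 1012, 2430, 2306 and 2489 in arrays labelled cKO, against 639.7 to 1517 in E13 embryo. The arrays with a low sum, array 2 of E13 and array 3 of E16, were thus the ones in which Hpca was high. They had been singled out for their likeness to embryo, so this match was favoured by that choice. Among the other E16 cKO arrays Hpca did not fall steadily as the sum rose, with 8.38 at a sum of 879.2 and 9.12 at 961.1. Of the 4 thalamus markers 1 passed at E16, Gbx2, a homeobox gene of the developing thalamus. It was higher in E16 cKO (limma adjusted p = 0.0041 for the fitted change), where 5 of 6 arrays were above background against 0 of 5 in E16 embryo. The fold was at least 7.51, a bound at the background limit that was not itself tested. Tcf7l2, another thalamic gene, was 0.91 lower on the log2 scale and did not pass (limma adjusted p = 0.39). Markers of cortical excitatory neurons summed to 21650 to 31410 in E16 cKO, against 24900 to 30850 in E16 embryo, and 0 of 5 passed. At E13 they summed to 20280 to 27400 in arrays labelled cKO, against 26560 to 35020 in E13 embryo, and 2 of 5 were lower, Slc17a7 and Tbr1. Other lists showed a like split. Intermediate progenitor sums were 12760 in array 2 of E13 cKO and 10940 in array 3 of E16 cKO. The other cKO arrays had 16630 to 19200 at E13 and 15400 to 20170 at E16. E13 embryo had 10640 to 15270 and E16 embryo 10960 to 12690. Among cKO arrays, sums of radial glia, interneuron and choroid plexus markers were also lowest in those arrays at their stages. Those of the remaining lists were not lowest in both. The part of any of these cells in the Hpca values was not tested. The cKO and embryo arrays came in separate tables, and the embryo labels name no tissue. Genotype, table and any difference of tissue therefore cannot be told apart.

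Camk4 and Camk2b did not pass at E16. Camk4 measured 7.79, 8.02, 8.41, 7.79, 6.85 and 7.20 in arrays labelled cKO, all 6 below every E16 embryo array (-1.01 ± 0.30 SE; limma adjusted p = 0.16). For Camk2b, 5 of 6 cKO arrays lay below every embryo array (-0.81 ± 0.27 SE; limma adjusted p = 0.28). Without both arrays named apart, the adjusted p was 0.036 for Camk4 and 0.041 for Camk2b. At E13, Camk4 differed by -0.64 ± 0.30 SE (limma adjusted p = 0.48) and Camkv by -0.59 ± 0.20 SE (limma adjusted p = 0.20).

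Differences of Caln1, Hpcal4, Ncald, Nrgn and Camk2a between arrays labelled cKO and embryo arrays lay between -0.26 and 0.21 on the log2 scale at both stages. Of their 95% confidence intervals at E16, that of Camk2a reached farthest from 0, to -0.63, so changes of that size are not excluded by the fit. For the interaction of stage and genotype 0 of 9 genes passed, as against 0.0188% of all genes (2 genes), and 1 of 9 (Camk2b) had an unadjusted p under 0.05, as did 381 genes.

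In the order of group means, Caln1 was lowest at E13, higher at E16 and highest at P2, with overlapping ranges of cKO and embryo arrays within each stage. One E16 cKO array, array 6 at 5.94, lay within the E13 values. For Hpcal4, Ncald and Nrgn the 4 embryonic groups lay next to each other with overlapping ranges, and the gap to P2 was 2.95, 4.44 and 5.39. Camk2a was lowest at E16, higher at E13 and highest at P2. The lowest E13 embryo array and the highest E16 embryo array were level at 6.19. Camk4 was lowest in E13 cKO, then E13 embryo, E16 cKO, E16 embryo and P2 neurons, and only the last 2 steps were free of overlap. Camkv had overlapping neighbours in all embryonic groups. The lowest 2 groups of both Camkv and Hpca were labelled cKO. For Hpca the highest neighbours, E16 embryo and P2 neurons, overlapped.

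The genes with the most similar pattern over all 27 arrays were named by Pearson's r, as a description dominated by the step to P2 that many genes share. For Caln1 it was Grm5, a metabotropic glutamate receptor gene (r = 0.985), which averaged 10.11 in P2 neurons and was above background in 1 of 5 E16 embryo arrays. For Nrgn it was Nwd2 (r = 0.991), for Ncald Sidt1 (r = 0.989), for Hpcal4 Reep5 (r = 0.989) and for Camkv Dock9 (r = 0.986). Camk4 was closest to D630004K10Rik and Thy1, a neuronal surface protein gene (r = 0.973 each), and Camk2b to Stx1a, a syntaxin gene of synaptic vesicle release (r = 0.97).

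Camk2a and Hpca had their own company. Camk2a was closest to Lor (r = 0.949) and to the neuropeptide gene Cck (r = 0.944). Cck averaged 6.44 in E16 cKO and 7.79 in E13 cKO, 6.77 in E16 embryo and 8.38 in E13 embryo, and 10.96 in P2 neurons, so it too had its lowest means at E16. Hpca was closest to the chemokine gene Cxcl12 (r = 0.934), which averaged 6.80 ± 1.33 (SD, n = 5) in E13 cKO and 8.78 ± 0.26 (SD, n = 6) in E13 embryo, with 7.50 ± 0.91 (SD, n = 6) for E16 cKO against 8.87 ± 0.30 (SD, n = 5) for E16 embryo. The mean of the 9 genes ran closest to Gnal (r = 0.985), a G protein subunit gene, and to Vsnl1 (r = 0.984).

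Of 42 further genes listed for calcium and calmodulin signalling, 32 were measured. At P2, 21 were higher than in E16 embryo (30.4% of all genes were) and 6 lower (41.6% of all genes), and 5 did not pass. Against E13 embryo 21 were higher (31.7% of all genes) and 8 lower (42.2% of all genes). This list too was chosen with earlier results known. Their median log2 change was 0.76 over E16 embryo, well under that of the 9 genes.

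**Figure D4:**
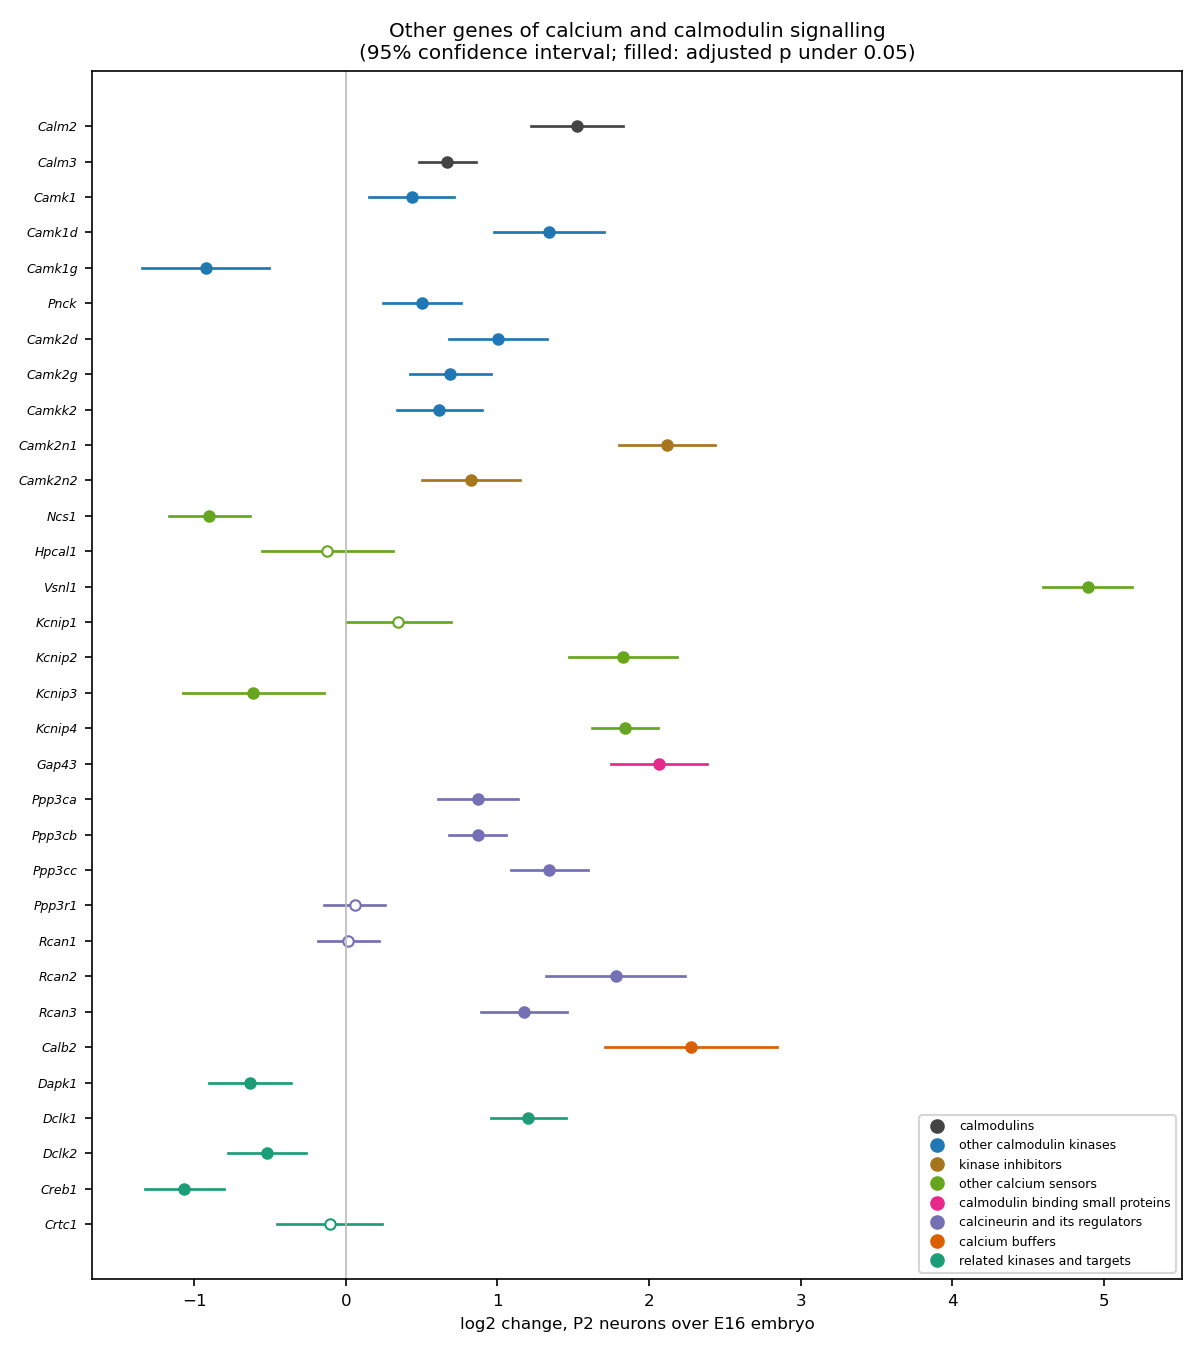
Fitted log2 change between P2 neurons and E16 embryo (x axis, with 95% confidence interval) of 32 other genes of the pathway (rows), coloured by list and filled where the adjusted p was under 0.05. Vsnl1 stands at 4.89, far right of the other points, and 6 filled points lie below 0.

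Vsnl1, which encodes the sensor visinin-like 1, a relative of hippocalcin, was 29.7-fold higher at P2 than in E16 embryo (4.89 ± 0.14 SE; limma adjusted p = 2.6e-20). Among the other calcium sensors the pattern was mixed, with 3 higher, 2 lower and 2 not passing of 7. Kcnip2 and Kcnip4, subunits of A-type potassium channels, were above background in 5 of 5 P2 arrays and 0 of 5 E16 embryo arrays (at least 2.07-fold and 1.63-fold higher). Both met the filter of 5 arrays only through the P2 arrays, so their calls are not independent of it. Ncs1, the neuronal calcium sensor 1, was 1.87-fold lower (-0.90 ± 0.13 SE), and Kcnip3 1.53-fold lower.

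Calmodulin genes and inhibitors of CaMKII were higher as well. Both measured calmodulin genes, Calm2 (2.88-fold) and Calm3 (1.59-fold), were higher at P2 than in E16 embryo. Of 7 other calmodulin kinase genes 6 were higher, by at least 1.14-fold for Camk2d, for which no E16 embryo array was above background, and by up to 2.53-fold for Camk1d. Camk2d too met the filter through P2, where 4 of its 5 arrays above background were. Camk1g was 1.90-fold lower. Camk2n1, an inhibitor of CaMKII, was 4.35-fold higher (2.12 ± 0.15 SE; limma adjusted p = 3.1e-12), and Gap43, which like Nrgn binds calmodulin but in growing axons, 4.19-fold higher.

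Calcineurin, the phosphatase that calmodulin activates, was represented by 7 measured genes. Of these 5 were higher at P2 than in E16 embryo, among them the catalytic subunit genes Ppp3ca and Ppp3cb (1.83-fold each) and Ppp3cc (2.54-fold), and 2 did not pass. Rcan2, a regulator of calcineurin, was 3.43-fold higher than in E16 embryo but 1.61-fold lower than in E13 embryo (-0.69 ± 0.21 SE; limma adjusted p = 0.0053). The calcium buffer gene Calb2 was 4.85-fold higher. Creb1, a target of Camk4, was 2.09-fold lower (-1.07 ± 0.13 SE), as Dapk1 (1.55-fold) and Dclk2 (1.43-fold) were. These are 3 of the 5 related kinases and targets.

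Before birth more genes of the wider list were lower at E16 than higher. Against E13, 3 of 32 genes were higher at E16 (11.5% of all genes were) and 9 lower (12.4% of all genes) in embryo arrays. In arrays labelled cKO 4 were higher (11.6% of all genes) and 8 lower (14.4%). The median log2 change of the 32 genes was 0.042 in embryo arrays and -0.027 in cKO arrays. Rcan2 was 5.53-fold lower at E16 in embryo (-2.47 ± 0.21 SE; limma adjusted p = 3.2e-09) and 6.08-fold lower in cKO arrays (-2.60 ± 0.21 SE). Ncs1 was 1.95-fold lower in embryo and 2.05-fold lower in cKO arrays. Pnck, a kinase of the CaMKI group, was among the genes higher in both (1.47-fold and 1.27-fold). Between arrays labelled cKO and embryo arrays 0 of the 32 passed at either stage, and 0 in the interaction.

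No probe sequences were used here, so whether a probe also binds transcripts of a related family member was not tested.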

How the data were processed

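The deposited intensities are average bead signals of each probe without normalisation, per the file headers, in 3 tables (arrays labelled cKO, E13 and E16 embryo, P2 neurons). Their lowest value was -50.8, which shows that background had already been removed. Each signal has a deposited detection p-value. The series matrix holds deposited log2 values of 12377 probes with a shared column median of 8.95. The software behind the files is not given in the sources used here.

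Signals were processed with R 4.3.3 and limma 3.58.1: normexp background correction using detection p-values, offset 16, then quantile normalisation over all 27 arrays and log2. Of 45281 probes, 20498 were kept, those detected (p under 0.01) on 5 or more arrays. A probe detected in the P2 arrays alone could be kept, as could one of any other single group. Symbols came from the platform annotation (34885 probes with 1 symbol, 18 with several, 10378 with none), and each of 10663 genes was represented by its kept probe of highest mean signal. One linear model with a mean per group gave 7 comparisons, adjusted by Benjamini-Hochberg over all genes. A fold against a group with no array above background was computed at that group's background limit and is a lower bound. The fit was checked on simulated data. Named were all 9 members, the 2 genes most like each by Pearson's r (5 for their mean), and listed pathway genes that passed. Members, lists, markers and tests were chosen with earlier results of these data known. Alternatives are given in the closing section.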

Additional observations from a re-analysis of the deposited data

Results flagged for a closer look

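In 2 of 45 pairs of a gene and a group, 1 array lay far from the rest of its group, by Dixon's test at the 95% level, which chance alone passes in about 5% of groups. Hpca was highest in array 3 of E16 cKO, at 10.48, with the other 5 arrays between 8.38 and 9.12. Camk2a was lowest in array 6 of E16 cKO, at 5.35, with the other 5 arrays between 5.76 and 5.93.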

How the results depend on the processing

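The 27 calls of members held in 613 of 624 alternative results, 11 lost significance and 0 changed direction. Of 950 alternatives for the 36 results that had not passed, 14 passed, over 13 planned settings and each array of the compared groups left out. With 1 array left out, the number of members passing ran between 8 and 8 for P2 neurons against E16 embryo, 9 and 9 against E13 embryo, 4 and 5 for E16 against E13 in embryo and in cKO arrays, 0 and 1 for cKO against embryo at E13, 1 and 2 at E16, and 0 and 0 for the interaction. The deposited log2 values cover 7 of the 9 members, without Nrgn and Camk2a. On them 2 passed between E16 and E13 in cKO arrays and 3 in embryo arrays. With the replicate number as a block on those values the counts were 2 and 3 again, and 0 for cKO against embryo at E16, where Hpca had an adjusted p of 0.053. Same-numbered samples showed no shared deviation in the median (correlation 0.01, over 0.1 in 15 of 51 pairs). These correlations cannot exclude that some samples were paired. In a fit of the compared groups alone, 0 members passed for cKO against embryo at E16. Without array 2 of E13 cKO and array 3 of E16 cKO, 1 member passed at E13 (Hpca) and 3 at E16 (Hpca, Camk2b, Camk4). As Nrgn and Camk2a are absent from the deposited log2 values, they could not pass there. The causes of the other shifts were not tested.

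Nrgn between E16 and E13 embryo also lost its call with median scaling, with tables normalised separately and with no filter, up to an adjusted p of 0.088. Over all genes, cKO against embryo at E16 gave 28 higher and 24 lower calls. It gave 1 and 9 from the compared groups alone, 0 and 9 with the replicate block (7 and 14 without it), 27 and 68 with tables normalised separately, 13 and 12 with no filter, and 131 and 134 without the 2 arrays. At E13 79 and 76 genes passed, 7 and 4 from the compared groups alone, 34 and 44 with the block, 62 and 144 with tables normalised separately and 210 and 186 without the 2 arrays. With tables normalised separately 7126 genes were higher and 1136 lower in P2 neurons than in E16 embryo, against 3237 and 4438, and 7132 and 1352 than in E13 embryo, against 3382 and 4502. With median scaling 582 were higher and 1323 lower at E16 than E13 in cKO arrays, against 1241 and 1533, and 651 and 1006 in embryo arrays, against 1223 and 1318. The interaction called 2 genes, 22 and 38 without the 2 arrays, and 0 or 1 in 6 settings. Column names give no slide, so a slide block was not run. Signals near background limit Nrgn, Camk2a and Caln1 in embryonic arrays.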
